A study of Homo sapiens with 16 samples.

Results

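Cytosolic ribosomal protein genes encode the protein parts of the ribosomes that translate nuclear-encoded mRNAs. They were taken as the symbols made of RPL or RPS, a number and an optional A, L, X or L1, plus the P proteins and RPSA, each read from 1 probe set, the one with the highest mean over the 16 arrays. The rule matched 84 RefSeq symbols, and 59 of them had a probe set annotated to that gene alone, among 19775 genes in all. Of these 59 genes, 38 are named for the large subunit and 21 for the small subunit. Canonical genes, which supply the standard ribosome, numbered 52, and 7 were paralogs, that is, separate genes for a second version of a ribosomal protein: RPL3L, RPL7L1, RPL10L, RPL22L1, RPL26L1, RPL39L and RPS27L. A further 15 symbols appeared only on probe sets annotated to several genes (RPL4, RPL5, RPL7A, RPL10, RPL13, RPL13A, RPL17, RPL21, RPL23, RPL28, RPS2, RPS3A, RPS13, RPS20 and RPS26), and 10 had no probe set named here. These 25 genes were not analysed here, except for 12 of the first 15, in an alternative reading given below.

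The study asked how inhibition of glucose metabolism changes gene expression in 2 mammary cell lines. The groups were MDA-MB-231 cells given 2-deoxy-glucose (2DG), MDA-MB-231 cells given water as vehicle, MCF10A cells given 2DG and MCF10A cells given water, with 4 independent biological replicates, called A to D, and 4 arrays in each. MDA-MB-231 is an aggressive breast cancer line with mutant p53, and MCF10A is an immortalised, non-tumorigenic mammary epithelial line with wild-type p53. 2DG is a glucose analogue that hexokinase phosphorylates but that cannot pass on through glycolysis, and it also disturbs N-linked glycosylation. It was given at 50 mM for 24 h to cells seeded at low confluence in DMEM/F12 medium that held 17.5 mM glucose, so glucose was present in every group. The media were not alike: MCF10A medium had horse serum, insulin, EGF, cholera toxin and hydrocortisone, and MDA-MB-231 medium had fetal bovine serum and more glutamine. Differences between lines are therefore differences between line and medium together. Each line is 1 established line, so the replicates measure the spread between cultures of that line.

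Ribosomal protein genes are transcribed at high rates and most of their products are used in equal numbers, so the canonical genes are usually regulated together. Their mRNAs typically begin with a C followed by an unbroken stretch of C and T, the terminal oligopyrimidine (TOP) tract, through which mTORC1 and LARP1 control their translation and stability according to nutrient supply. Free ribosomal proteins such as RPL5 and RPL11 bind MDM2 and stabilise p53 when ribosome assembly fails. Paralogs are expressed in fewer tissues or at other levels than their canonical partners, and some can replace them in the ribosome.

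RefSeq promoters (GRCh38.p14) were matched for 51 of the 59 genes. A C followed by at least 4 bases of C or T stood at an annotated start in 34 of 46 canonical genes (73.91%), in 1 of 5 paralogs, and in 1404 of all 27305 genes of the table (5.14%). The sequences below run from 30 bases before to 20 bases into the gene. They show the 4 canonical genes with the largest rises on 2DG in MCF10A, then RPL22 and RPS27 with their paralogs, and 2 further paralogs. RPL3 and RPS15A, among the largest rises in MDA-MB-231, are not shown. RPL3 did not count as having such a stretch at its annotated start, though it had one that began within 10 bases, and RPS15A had no matched promoter. Capitals mark the unbroken run of C and T that covers the start, counted from its first C. Sequences with no capitals have no such run that begins within 10 bases of the start.
RPL12, chr9:127451387-127451436, minus strand: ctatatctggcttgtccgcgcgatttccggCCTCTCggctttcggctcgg
RPL14, chr3:40457309-40457358, plus strand: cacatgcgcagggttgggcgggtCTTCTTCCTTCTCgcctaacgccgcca
RPL31, chr2:101002259-101002308, plus strand: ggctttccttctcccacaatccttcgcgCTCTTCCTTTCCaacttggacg
RPL34, chr4:108620546-108620595, plus strand: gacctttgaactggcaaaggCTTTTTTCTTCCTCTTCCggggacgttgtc
RPL22, chr1:6199576-6199625, minus strand: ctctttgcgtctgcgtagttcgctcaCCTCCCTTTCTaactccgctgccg
RPL22L1, chr3:170870176-170870225, minus strand: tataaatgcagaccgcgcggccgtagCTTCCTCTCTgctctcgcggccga
RPS27, chr1:153990732-153990781, plus strand: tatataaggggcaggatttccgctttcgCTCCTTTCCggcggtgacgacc
RPS27L, chr15:63157458-63157507, minus strand: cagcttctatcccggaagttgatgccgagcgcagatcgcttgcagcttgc
RPL7L1, chr6:42879586-42879635, plus strand: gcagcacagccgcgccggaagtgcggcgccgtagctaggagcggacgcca
RPL26L1, chr5:172958699-172958748, plus strand: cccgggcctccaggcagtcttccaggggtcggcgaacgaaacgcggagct

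The run covered the start of RPL12, RPL14, RPL31 and RPL34, of RPL22 and RPS27, and of the paralog RPL22L1. RPS27L, RPL7L1 and RPL26L1 had none there. Within 10 bases of the start, such a run began in 42 of 46 canonical genes (91.3%), against 38.43% of all genes. The ETS-family motif CCGGAAG was searched on both strands of the whole promoter entry. Read on the other strand it is CTTCCGG, which can itself form part of a run of C and T, as at the end of the RPL34 run above, so the motif and the runs are not counted independently. It was held by 17 of 46 canonical genes (36.96%), by 2 of 5 paralogs, and by 12.16% of all genes. These are matches of letters in the reference and say nothing of use in these cells.

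All values are log2 intensities that the authors normalised with RMA, so a difference of 1 is a doubling, and levels of different genes cannot be set against each other because their probes differ. Canonical ribosomal protein genes lay at the top of the scale: 49 of the 52 had a mean above 13 and stood at or above the 99.13 percentile of genes, while array maxima ran from 15.14 to 15.15 in MDA-MB-231 on 2DG, 15.09 to 15.12 on vehicle, 15.11 in MCF10A on 2DG and 15.02 to 15.05 on vehicle. Changes so near the top can be understated. The remaining 3 were read from dim probe sets, with means of 6.84 for RPLP2, 7.97 for RPL27A and 5.69 for RPL36A, and their values carry little about those genes. Replicates were tight: the median SD over the 59 genes was 0.0191 in MDA-MB-231 on 2DG, 0.0252 on vehicle, 0.0173 in MCF10A on 2DG and 0.0216 on vehicle. The lines carried their own markers, with the basal epithelial gene KRT14 at 5.71 and 4.91 in MDA-MB-231 (2DG and vehicle) and 13.31 and 13.63 in MCF10A, and the mesenchymal gene ZEB1 at 11.4 and 11.29 in MDA-MB-231 and 7.61 and 7.75 in MCF10A. PTPRC, which marks leukocytes, was at 3.75 to 4.16. The actin 3′ to 5′ log2 ratio, a sign of RNA degradation, averaged 1.03 ± 0.0714 in MDA-MB-231 on 2DG and 0.598 ± 0.331 on vehicle, where replicate B alone stood at 1.09, and 0.55 ± 0.0678 in MCF10A on 2DG and 0.392 ± 0.067 on vehicle (SD, n = 4 each).

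In MDA-MB-231 cells, 2DG went with small changes of the canonical genes, more often up than down on the probe sets used. Of the 52, 18 rose and 3 fell at an adjusted p under 0.05, with a median change of 0.059, and of all 59 genes 20 rose and 6 fell. Among all genes tested, 25.5% rose and 25.4% fell, with a median of 0.028. The groups did not overlap, with 2DG higher, for 26 canonical genes and, with 2DG lower, for 4, against 22.9% and 24.0% of all genes. The canonical large subunit had 11 genes higher and 3 lower of 32, and the small subunit had 7 higher and 0 lower of 20 by limma (8 and 0 at an unadjusted p under 0.05). Per array, the median of the 49 genes above 13 was 14.6 to 14.62 on 2DG and 14.53 to 14.59 on vehicle. These ranges nearly touch, and the other 255 genes above 13 had 92 higher and 104 lower, with a median of -0.005. The count in MDA-MB-231 depended on the processing: of the 59 genes, 7 rose and 5 fell in a fit that took the actin ratio as a further term, 35 rose and 4 fell after cyclic loess, 35 rose and 6 fell with a trended, robust variance, and 13 rose without vehicle replicate A. Over all 19775 genes, 4077 rose and 4786 fell with the actin term, so the 59 genes rose and fell less often than all genes there. After cyclic loess 4654 of all genes rose and 5224 fell, and with the trended, robust variance 4950 and 5055. The actin ratio moved with 2DG in this line. The part of RNA integrity in the changes of the 59 genes was not tested beyond the fit with that ratio. Rises did not outnumber falls without probe sets named _x_at or _s_at, which are described below. There, 36 of the 59 genes could be read, some from dim sets, and 9 rose and 11 fell. Over all 17100 genes read so, 3862 rose and 4075 fell, so the rises were near the share of all genes. Of the 49 canonical genes above 13, 28 could be read, and 7 rose and 7 fell.

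The rises in MDA-MB-231 were led by RPL34 and RPL12. RPL34 read 14.13, 14.11, 14.12 and 14.15 on 2DG and 13.95, 13.97, 13.96 and 13.93 on vehicle, a change of 0.175 ± 0.0383 (adjusted p = 0.000948). RPL12, which forms the base of the stalk that recruits elongation factors, read 14.85, 14.84, 14.85 and 14.87 on 2DG and 14.67, 14.69, 14.69 and 14.7 on vehicle, a change of 0.165 ± 0.0274 (adjusted p = 6.9e-05). Both had groups that did not overlap, as had the next genes in size. RPS15A, a small subunit protein, read 14.6, 14.57, 14.53 and 14.56 on 2DG and 14.36, 14.4, 14.38 and 14.47 on vehicle, a change of 0.16 ± 0.0316 (adjusted p = 0.000328). RPL3, which lies next to the catalytic centre of the ribosome, read 14.13, 14.14, 14.18 and 14.12 on 2DG and 13.95, 14.02, 14.02 and 13.94 on vehicle, a change of 0.16 ± 0.0322 (adjusted p = 0.00045).

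Falls were seen for 3 large subunit genes of MDA-MB-231. RPL35, at the rim of the exit tunnel, read 14.25, 14.25, 14.24 and 14.28 on 2DG and 14.37, 14.38, 14.41 and 14.42 on vehicle, a change of -0.14 ± 0.0284 (adjusted p = 0.000488). RPL36 read 13.35, 13.34, 13.26 and 13.34 on 2DG and 13.39, 13.56, 13.39 and 13.43 on vehicle, a change of -0.12 ± 0.0402 (adjusted p = 0.0197), and it was not called without vehicle replicate B (-0.081), which was the highest array, without 2DG replicate C (-0.099), after cyclic loess (-0.091) or on the mean of its probe sets (-0.102). RPL8, which lies near the catalytic centre, read 14.11, 14.18, 14.15 and 14.2 on 2DG and 14.24, 14.29, 14.29 and 14.23 on vehicle, a change of -0.1 ± 0.0325 (adjusted p = 0.0145). Its groups did not overlap, but the call was lost without 2DG replicate A (-0.086), after cyclic loess (-0.069) and with the actin term (-0.11). In this line RPL11 and RPS6 had changes of 0.0425 ± 0.0278 and 0.05 ± 0.0275, which did not pass the test (adjusted p = 0.231 and 0.151).

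In MCF10A cells, 2DG went with a small rise of most canonical genes. Of the 52, 37 rose and 1 fell, with a median log2 change of 0.135, and of all 59 genes 40 rose and 5 fell. Among all genes tested, 29.0% rose and 25.2% fell, with a median change of 0.022. After cyclic loess normalisation, 51 of the 59 rose and 4 fell, and their median was 0.264, against 0.135 as deposited. Over all 19775 genes after cyclic loess, 5647 rose and 5045 fell. The small subunit had 16 of 20 canonical genes higher and 0 lower by limma (18 and 0 at an unadjusted p under 0.05, median 0.129), and the large subunit had 21 of 32 higher and 1 lower (median 0.145). The groups did not overlap, with 2DG higher, for 44 canonical genes and, with 2DG lower, for 2, against 27.4% and 24.2% of all genes.

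Other bright genes more often fell. Of the 255 other genes with a mean above 13, which were dimmer than the ribosomal protein genes (array medians of 13.38 to 13.4 on 2DG and 13.53 to 13.54 on vehicle in MCF10A), 67 rose and 143 fell in MCF10A, with a median change of -0.145, while the 49 canonical genes above 13 had a median of 0.155. Per array, the median of those 49 was 14.53 to 14.55 on 2DG and 14.36 to 14.39 on vehicle, so no 2DG array reached down to a vehicle array. The difference between these 2 sets of genes is a description and was not tested.

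The 4 largest rises among canonical genes of MCF10A were all in the large subunit. RPL14 read 14.45, 14.43, 14.43 and 14.45 in MCF10A cells on 2DG, against 14.11, 14.06, 14.05 and 14.13 on vehicle. The groups were far apart beside their spread, and the change was 0.35 ± 0.032 (SE, limma adjusted p = 5.59e-08). RPL12 read 14.68, 14.68, 14.69 and 14.67 on 2DG and 14.36, 14.32, 14.31 and 14.34 on vehicle, a change of 0.35 ± 0.0274 (adjusted p = 9.1e-09). RPL31, at the rim of the tunnel through which new proteins leave the ribosome, read 14.62, 14.63, 14.63 and 14.63 on 2DG and 14.30, 14.23, 14.29 and 14.31 on vehicle. Again the groups did not overlap, and the change was 0.345 ± 0.031 (adjusted p = 4.8e-08). RPL34 read 14.2, 14.39, 14.3 and 14.37 on 2DG, with replicate A the lowest, and 13.97, 13.96, 13.98 and 13.99 on vehicle, a change of 0.34 ± 0.0383 (adjusted p = 7.76e-07).

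Only RPL10A among canonical genes was called lower in MCF10A. It read 14.48, 14.5, 14.48 and 14.52 on 2DG and 14.55, 14.58, 14.58 and 14.57 on vehicle, a change of -0.075 ± 0.0274 (adjusted p = 0.0296). The call was lost on leaving out any 1 of 6 MCF10A arrays (changes of -0.077 to -0.07) and on the mean of its probe sets (-0.012), and after cyclic loess normalisation the sign turned (0.068), as did that of RPL35 (-0.06 as deposited, 0.077 after cyclic loess).

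RPL11 and RPS6, which have known regulatory roles, also rose in MCF10A. RPL11, which binds MDM2, read 14.15, 14.14, 14.14 and 14.16 on 2DG, against 13.99, 13.97, 13.94 and 13.97 on vehicle, and rose by 0.18 ± 0.0278 (adjusted p = 2.83e-05). RPS6, the substrate of S6 kinase that is often used as a readout of mTORC1, read 14.6, 14.61, 14.63 and 14.62 on 2DG and 14.4, 14.42, 14.41 and 14.42 on vehicle, and rose by 0.2 ± 0.0275 (adjusted p = 6.92e-06). On the probe set of RPS6 that is not marked as shared, which is dim (a mean of 4.84), the change was -0.035 and did not pass (adjusted p = 0.821). Neither pair of groups overlapped. RPL5, the partner of RPL11 at MDM2, had no probe set of its own here, nor had RPLP0, RPL13A or RPSA.

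**Figure D1:**
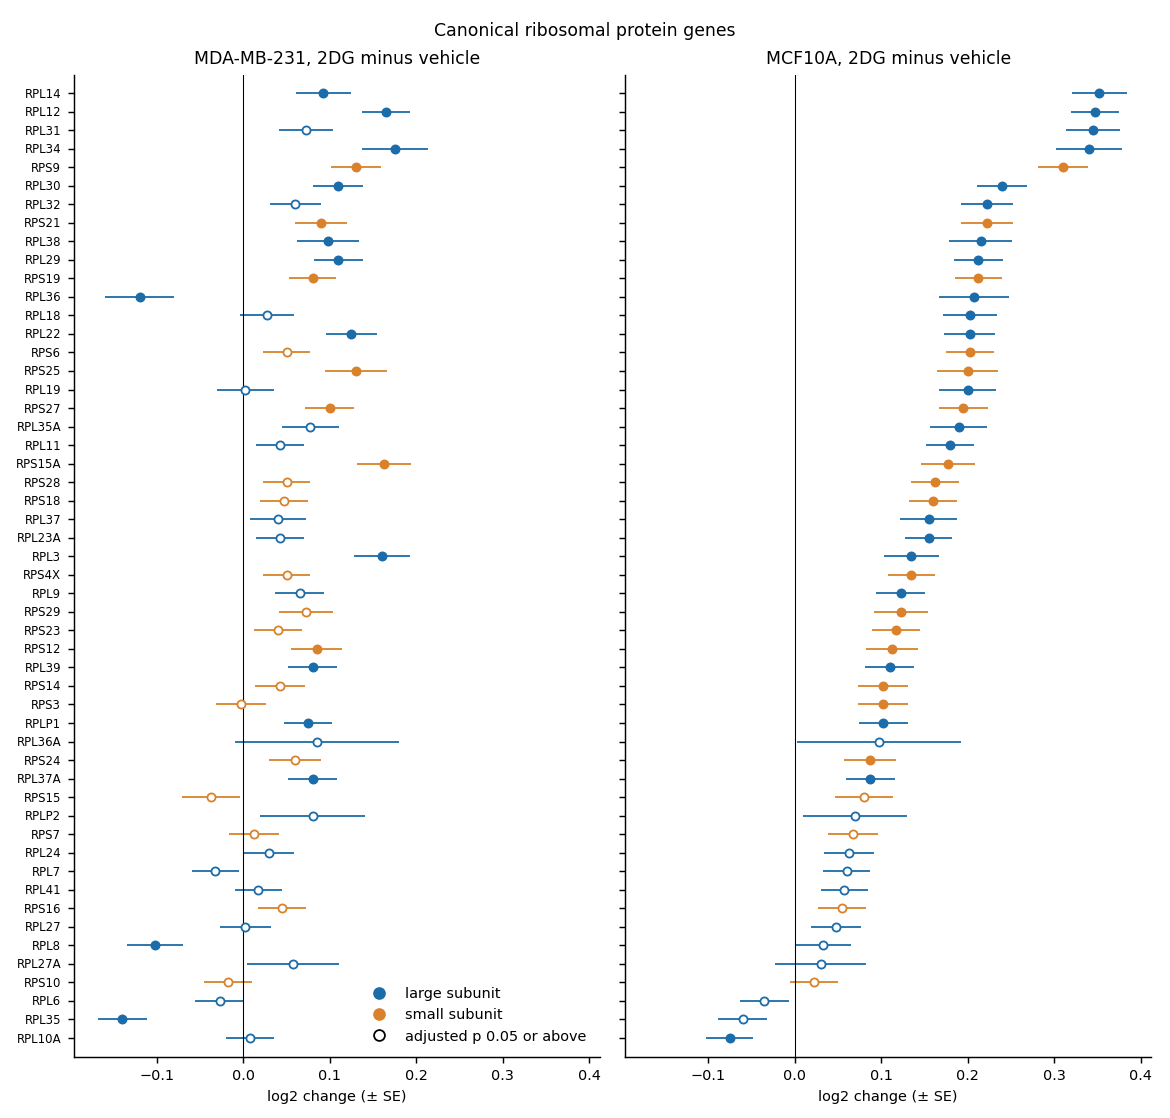
Log2 change on 2DG, with standard errors, of the 52 canonical genes in MDA-MB-231 (left) and in MCF10A (right), in the order of the MCF10A change. Filled points passed an adjusted p of 0.05, of which 18 lie above 0 and 3 below in MDA-MB-231, and 37 above and 1 below in MCF10A.

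Taking both lines, 18 canonical genes were called higher in each: RPL3, RPL12, RPL14, RPL22, RPL29, RPL30, RPL34, RPL37A, RPL38, RPL39, RPLP1, RPS9, RPS12, RPS15A, RPS19, RPS21, RPS25 and RPS27. Another 18 passed in MCF10A and not in MDA-MB-231: RPL9, RPL11, RPL18, RPL19, RPL23A, RPL31, RPL32, RPL35A, RPL37, RPS3, RPS4X, RPS6, RPS14, RPS18, RPS23, RPS24, RPS28 and RPS29. RPL36 was lower in MDA-MB-231 and higher in MCF10A, RPL10A was lower in MCF10A alone by the test, and RPL8 and RPL35 were lower in MDA-MB-231 alone by the test. The last 12 passed in neither line (RPL6, RPL7, RPL24, RPL27, RPL27A, RPL36A, RPL41, RPLP2, RPS7, RPS10, RPS15 and RPS16). The calls made in both lines did not all hold under alternatives. With the actin term, 5 of the 49 canonical genes above 13 rose in MDA-MB-231, against 18 as deposited. Over all 19775 genes, 4077 rose with the actin term, against 5039 as deposited. RPL14 lost its call in MDA-MB-231 without shared probe sets (0.108) and with the actin term (0.062). The same held without vehicle replicate A (0.078), 2DG replicate A (0.085) or 2DG replicate D (0.082). RPL3 lost its call in MCF10A with probe sets shared with small RNA genes (0.052).

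The difference of the 2DG response, MDA-MB-231 minus MCF10A, was tested directly. It was negative and past the threshold for 20 of 52 canonical genes and positive for 0 by limma (27 and 0 at an unadjusted p under 0.05), and over all 59 genes it was lower for 23 and higher for 3. Among all genes, 23.6% had a lower and 22.3% a higher response in MDA-MB-231. The median difference over canonical genes was -0.089, against 0.005 over all genes. RPL36 had the most negative value, -0.33 ± 0.0568 (limma adjusted p = 0.000135), with changes of -0.12 in MDA-MB-231 and 0.21 in MCF10A. RPL31 followed at -0.27 ± 0.0439 (adjusted p = 6.4e-05), and RPL14 at -0.26 ± 0.0454 (adjusted p = 0.000143). The response also differed for RPL11 (-0.14, adjusted p = 0.00832) and RPS6 (-0.15, adjusted p = 0.00378). These calls were lost for RPL14 without shared probe sets (-0.11, on a dim set with a mean of 7.63), and for RPS6 on the mean of its sets (-0.055) and without shared sets (0.222).

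On vehicle, canonical genes tended to be higher in MDA-MB-231 than in MCF10A. Of the 52, 29 were higher and 6 lower, with a median difference of 0.121, and of all 59 genes 32 were higher and 8 lower. Among all genes tested, 29.2% were higher and 26.8% lower, with a median of 0. The groups did not overlap, with MDA-MB-231 higher, for 31 canonical genes and, with MDA-MB-231 lower, for 7, against 27.8% and 24.9% of all genes. RPL31 read 14.71, 14.79, 14.73 and 14.73 in MDA-MB-231 and 14.3, 14.23, 14.29 and 14.31 in MCF10A, a difference of 0.46 ± 0.031 (adjusted p = 1.25e-09). RPL14 read 14.41, 14.48, 14.47 and 14.46 in MDA-MB-231 and 14.11, 14.06, 14.05 and 14.13 in MCF10A, a difference of 0.37 ± 0.0321 (adjusted p = 3.14e-08), which was 0.118 and not called on that dim set. On the sets used, RPL31 and RPL14 thus stood apart between lines by about as much as they moved on 2DG in MCF10A. All 5 measured genes for proteins of the exit tunnel rim were higher in MDA-MB-231 (median 0.235). Of 3 measured stalk genes, 1 was higher and 2 were lower (median -0.14), with RPLP2 read from a dim set. FAU and RPL36AL, other cytosolic ribosomal protein genes outside the naming rule, were also higher in MDA-MB-231 (0.34 and 0.44). RPL3 was lower, at 13.95, 14.02, 14.02 and 13.94 in MDA-MB-231 and 14.17, 14.17, 14.19 and 14.14 in MCF10A, a difference of -0.185 ± 0.0322 (adjusted p = 9.58e-05). The dim probe sets of RPL36A (0.55), RPL27A (-0.2) and RPLP2 (-0.165) also passed the test. RPLP2 lost the call on the mean of its sets (-0.101), without shared sets (-0.038), with a trended, robust variance, with the actin term (-0.127) and on leaving out any 1 of 4 arrays (-0.148 to -0.13), and with probe sets shared with small RNA genes the signs of RPLP2 (0.112) and RPL27A (0.035) turned.

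The paralogs did not move together, and on the probe sets used most changed in each line by more than any canonical gene did. Less bright sets of canonical genes changed by as much as some paralogs, such as -0.35 for RPL22 in MDA-MB-231 and 1.285 for RPL37 in MCF10A. In MDA-MB-231, 2 rose and 3 fell on 2DG, and in MCF10A, 3 rose and 4 fell. RPL22L1 showed the widest contrast between lines. RPL22L1 is the paralog of RPL22, an RNA-binding protein of the large subunit, and in mouse cells RPL22 is known to repress the RPL22L1 mRNA. In MDA-MB-231, RPL22L1 read 12.94, 12.97, 12.91 and 12.95 on 2DG, against 12.72, 12.62, 12.7 and 12.83 on vehicle, and rose by 0.225 ± 0.0459 (limma adjusted p = 0.000507). In MCF10A it read 12.05, 12.01, 12.09 and 12.13 on 2DG, against 13.55, 13.48, 13.54 and 13.63 on vehicle, and fell by 1.48 ± 0.0459 on the log2 scale (adjusted p = 6.26e-14). The groups did not overlap in either line, and the responses differed by 1.705 ± 0.0649 (adjusted p = 3.87e-12). On vehicle, MDA-MB-231 minus MCF10A was -0.83 ± 0.0459.

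RPL22 itself had 5 probe sets, and they did not give 1 answer. The brightest, with a mean of 13.99, changed by 0.125 ± 0.0296 in MDA-MB-231 and 0.2 ± 0.0296 in MCF10A (adjusted p = 0.00182 and 1.56e-05), and the call in MDA-MB-231 was lost with the actin term (0.1). The dimmest, with a mean of 12.05, is the only one whose probes are not marked as shared with other transcripts. In MDA-MB-231 it read 11.51, 11.52, 11.59 and 11.57 on 2DG, against 11.95, 11.89, 11.93 and 11.82 on vehicle, a change of -0.35 ± 0.0398. In MCF10A it read 12.65, 12.67, 12.73 and 12.69 on 2DG, against 12.07, 12.06, 12.11 and 12.07 on vehicle, a change of 0.61 ± 0.0398. On this set RPL22 therefore moved opposite to RPL22L1 in both lines (adjusted p over all probe sets 9.82e-07 in MDA-MB-231 and 7.85e-10 in MCF10A). The set with a mean of 12.19 gave -0.16 in MDA-MB-231 and 0.355 in MCF10A, the same signs. The direction of RPL22 in MDA-MB-231 thus turned with the probe set. Its promoter and that of RPL22L1, printed above, both hold a run of C and T over the start.

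RPS27L is the paralog of RPS27, a zinc-binding protein of the small subunit, and is a known target of p53. In MDA-MB-231 it read 12.66, 12.64, 12.51 and 12.63 on 2DG and 12.62, 12.68, 12.67 and 12.76 on vehicle. There the groups overlapped, with a change of -0.07 ± 0.0447 (adjusted p = 0.204, 95% interval -0.168 to 0.0227). In MCF10A it read 13.2, 13.16, 13.15 and 13.25 on 2DG, against 12.54, 12.59, 12.55 and 12.67 on vehicle, and rose by 0.6 ± 0.0447 (adjusted p = 4.17e-09). The responses differed by -0.675 ± 0.0632 (adjusted p = 1.56e-07). The other 2 probe sets of RPS27L, with means of 8.48 and 8.23, gave -0.253 and -0.033 in MDA-MB-231 and 0.943 and 0.448 in MCF10A. The set with a mean of 8.48, whose probes are not marked as shared, was called lower in MDA-MB-231 (limma adjusted p over all probe sets 0.00367). Its groups there did not overlap. Whether RPS27L fell in MDA-MB-231 thus depended on the probe set. RPS27 rose by 0.1 ± 0.0284 in MDA-MB-231 (adjusted p = 0.00705) and by 0.195 ± 0.0284 in MCF10A (adjusted p = 1.5e-05). The call was lost in MDA-MB-231 with the actin term (0.075, adjusted p = 0.137) and in MCF10A without shared probe sets (0.125, adjusted p = 0.328).

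RPL39L is a paralog of RPL39, a small protein that lines the exit tunnel, and is known mainly from testis and from some tumours. It had the widest difference between lines of all 59 genes. On vehicle it read 9.69, 9.82, 9.75 and 9.62 in MDA-MB-231 and 6.22, 6.38, 6.46 and 6.47 in MCF10A, a difference of 3.34 ± 0.0804 (adjusted p = 2.27e-15). On 2DG it read 8.13, 8.01, 7.92 and 8.16 in MDA-MB-231, a change of -1.665 ± 0.0804 (adjusted p = 2.48e-11). MCF10A cells on 2DG had 5.06, 5.17, 5.44 and 5.26, a change of -1.15 ± 0.0804 (adjusted p = 1.95e-09), though both groups there are dim. No 2DG array reached its vehicle group in either line, and the responses differed by -0.52 (adjusted p = 0.00122). RPL39 rose by 0.08 in MDA-MB-231 and 0.11 in MCF10A (adjusted p = 0.0261 and 0.00315). The call in MDA-MB-231 was lost with the actin term (0.088) and without vehicle replicate B (0.072), vehicle replicate C (0.078) or 2DG replicate A (0.072).

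RPL7L1 and RPL26L1 fell in both lines. RPL7L1 is a relative of RPL7 whose yeast counterpart acts in assembly of the large subunit. In MDA-MB-231 it read 13.46, 13.52, 13.51 and 13.53 on 2DG, against 13.81, 13.83, 13.9 and 13.77 on vehicle, a change of -0.32 ± 0.0339 (adjusted p = 3.99e-07). In MCF10A it read 12.16, 12.23, 12.21 and 12.22 on 2DG, against 12.92, 12.92, 12.92 and 12.91 on vehicle, a change of -0.71 ± 0.0339 (adjusted p = 1.37e-11). The responses differed by 0.39 (adjusted p = 3.59e-06), and on vehicle MDA-MB-231 was higher by 0.91. RPL26L1, which differs little from RPL26, read 11.64, 11.57, 11.54 and 11.66 in MDA-MB-231 on 2DG, against 12.03, 11.97, 12.03 and 12.07 on vehicle, a change of -0.42 ± 0.0363 (adjusted p = 3.31e-08). MCF10A cells had 11.59, 11.66, 11.62 and 11.63 on 2DG, against 12.26, 12.2, 12.21 and 12.25 on vehicle, a change of -0.605 ± 0.0363 (adjusted p = 2.7e-10). Neither gene's groups overlapped in either line. RPL7, the canonical partner of RPL7L1, changed by -0.0325 in MDA-MB-231 and 0.06 in MCF10A and passed in neither line.

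RPL10L and RPL3L were dim. RPL10L is a testis-expressed copy of RPL10. In MDA-MB-231 it read 7.84, 7.98, 8.01 and 7.91 on 2DG and 7.53, 7.98, 7.6 and 7.71 on vehicle, a change of 0.23 ± 0.0751 (adjusted p = 0.0171). The groups overlapped there through vehicle replicate B, and the change was 0.008 in the fit with the actin term. The call was also lost without vehicle replicate A (0.172), vehicle replicate C (0.195) or 2DG replicate C (0.205). In MCF10A it read 7.72, 7.63, 7.69 and 7.76 on 2DG, against 7.07, 7.17, 7.15 and 7.18 on vehicle, a change of 0.56 ± 0.0751 (adjusted p = 6.31e-06). RPL3L, the muscle paralog of RPL3, had means of 5.21 and 5.11 in MDA-MB-231 (2DG and vehicle) and 5.39 and 5.17 in MCF10A, with changes of 0.11 (adjusted p = 0.315) and 0.23 (adjusted p = 0.0285). The call in MCF10A was lost on leaving out any 1 of 4 of its arrays (changes of 0.162 to 0.226) and with the actin term (0.212).

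**Figure D2:**
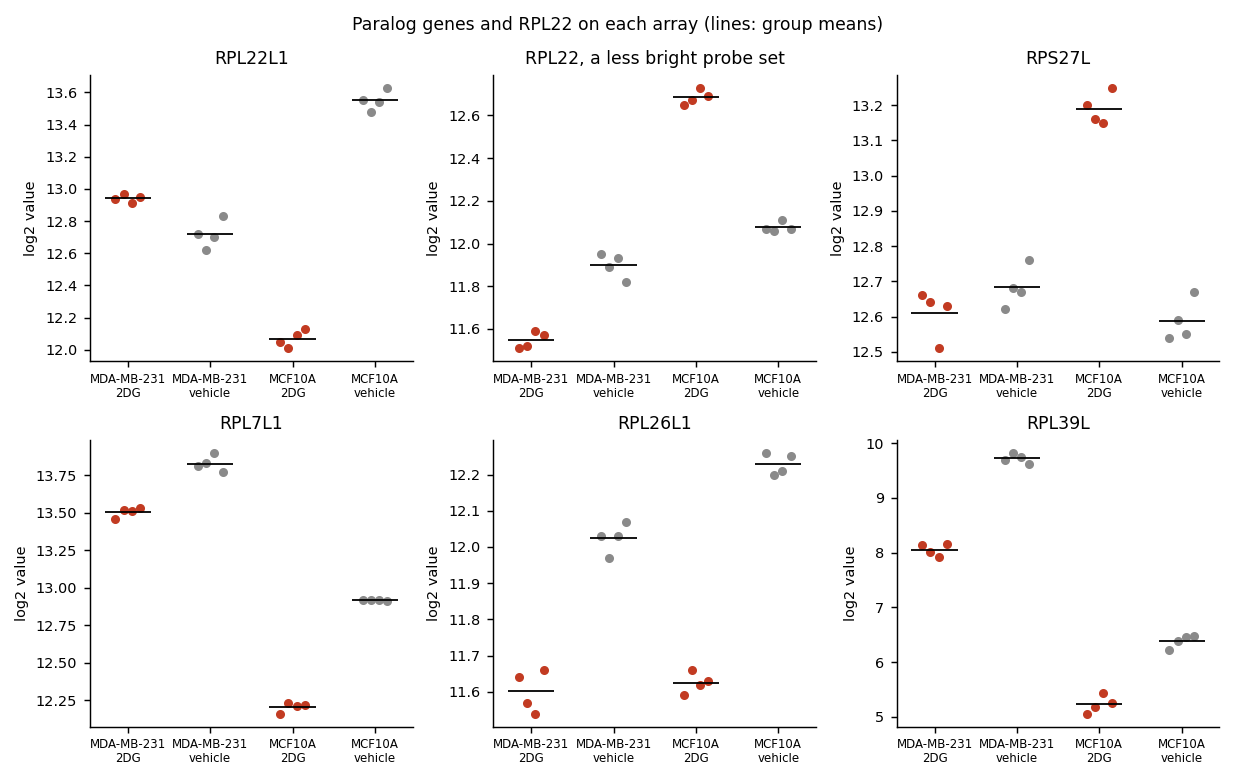
Log2 values on each of the 16 arrays of RPL22L1, RPL22 (the probe set with a mean of 12.05), RPS27L, RPL7L1, RPL26L1 and RPL39L, with 2DG (red) left of vehicle (grey) in each line and group means as lines. Each panel has its own scale, which does not start at 0, and RPL22L1 is higher on 2DG in MDA-MB-231 and lower in MCF10A, with RPL22 on this probe set the other way round.

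The choice of probe set mattered for other genes as well. The 59 genes had 120 probe sets, and 44 genes were read from sets whose names end in _x_at or _s_at, which can also bind related transcripts, including the many processed pseudogenes of this family. Above 13, 18 further sets over 14 genes were present, and 17 of them had the same sign of change as the set used, in MDA-MB-231 and in MCF10A. Of these 18 sets, 6 in MDA-MB-231 and 11 in MCF10A were of genes called in that line, and 6 and 10 had the same sign. Most of the 18 are themselves named _x_at or _s_at. Less bright sets spread widely. RPL31, with 0.0725 in MDA-MB-231 and 0.345 in MCF10A on the set used, had -0.165 and 1.21 on the set with a mean of 9.25, and -0.482 and -0.38 on the set with a mean of 9.66. Without _x_at and _s_at sets, 36 of the 59 genes could be read, some from dim sets. Of these, 9 rose and 11 fell in MDA-MB-231 and 18 rose and 8 fell in MCF10A. Over all 17100 genes read so, 3862 rose and 4075 fell in MDA-MB-231, and 4569 and 3970 in MCF10A. An alternative chosen after seeing the data added probe sets shared only with small RNA genes of the same locus. It brought in 12 more canonical genes. Of the 71 then read, 25 rose and 6 fell in MDA-MB-231 and 51 rose and 5 fell in MCF10A. Over all 19787 genes in this alternative, 5045 rose and 5019 fell in MDA-MB-231, and 5743 and 4988 in MCF10A.

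**Figure D3:**
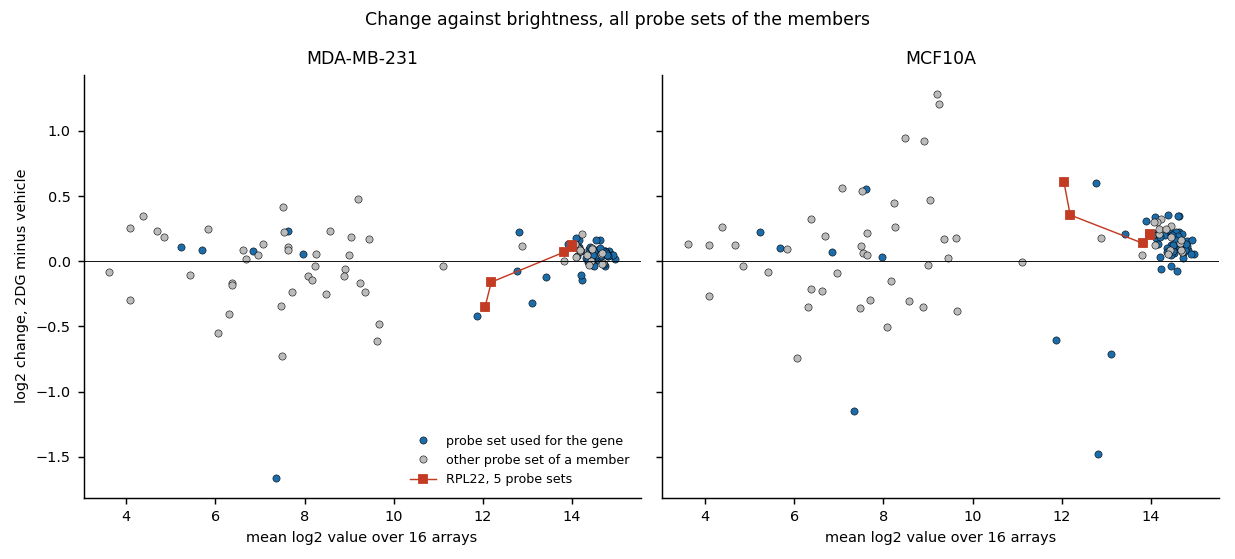
Log2 change on 2DG of all 120 probe sets of the 59 genes against their mean log2 value over the 16 arrays, in MDA-MB-231 (left) and MCF10A (right), with the set used for each gene in blue and RPL22's 5 sets joined in red. Most sets above 13 are close to 0 and above it, and the sets of RPL22 near 12 lie below 0 in MDA-MB-231 and above its brighter sets in MCF10A.

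Genes that act beside the ribosomal proteins were then read from lists of translation factors, assembly factors and regulators. The shares over all genes, against which their counts are to be read, were 25.5% higher and 25.4% lower in MDA-MB-231 and 29.0% higher and 25.2% lower in MCF10A. Of 17 measured translation factors and other mRNAs with a TOP tract, 10 rose and 2 fell in MDA-MB-231 (median 0.09), and 13 rose and 2 fell in MCF10A (median 0.17). HNRNPA1, an RNA-binding protein, rose by 0.69 in MDA-MB-231 and 1.03 in MCF10A. EEF2, the elongation factor of translocation, rose by 0.53 in MDA-MB-231 and 0.52 in MCF10A, and EIF4B, an initiation factor, by 0.37 and 0.72. Outside the naming rule, RPL36AL rose by 0.17 in MDA-MB-231 and 0.25 in MCF10A. FAU, which encodes a ubiquitin-like protein joined to a ribosomal protein, changed by -0.18 in MDA-MB-231 and -0.08 in MCF10A (limma adjusted p = 5.89e-05 and 0.0356).

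Genes that build ribosomes mostly went the other way. Of 35 measured genes of RNA polymerase I and rRNA processing, 9 rose and 22 fell in MDA-MB-231 (median -0.32), and 2 rose and 31 fell in MCF10A (median -0.72). The share that rose in MDA-MB-231 (25.71%) was that of all genes. MRTO4, which holds the place of the stalk during large subunit assembly, changed by -1.16 in MDA-MB-231 and -1.8 in MCF10A. WDR43, of the small subunit processome, changed by -1.2 in MDA-MB-231 and -1.27 in MCF10A. LYAR, a nucleolar processing factor, went opposite ways, with 0.16 in MDA-MB-231 and -1.57 in MCF10A (adjusted p of the difference 8.2e-13). All 7 dedicated chaperones of ribosomal proteins fell in both lines, with medians of -0.458 in MDA-MB-231 and -1.17 in MCF10A. HEATR3, which serves RPL5, changed by -0.7 in MDA-MB-231 and -1.59 in MCF10A. GRWD1, whose yeast counterpart serves RPL3, changed by -0.79 in MDA-MB-231 and -0.88 in MCF10A, and LTV1, whose yeast counterpart binds RPS3, by -0.46 and -1.46. Mitochondrial ribosomal proteins, which the naming rule leaves out, had 10 of 75 higher and 52 lower in MDA-MB-231 (median -0.295), and 4 higher and 65 lower in MCF10A (median -0.528). MRPL12 changed by -1.47 in MDA-MB-231 and -1.64 in MCF10A, MRPL20 by -1.61 and -1.43, and MRPL1 by -1.3 and -1.45. The canonical cytosolic genes had higher medians than these 3 lists in both lines, a difference that was not tested.

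**Figure D4:**
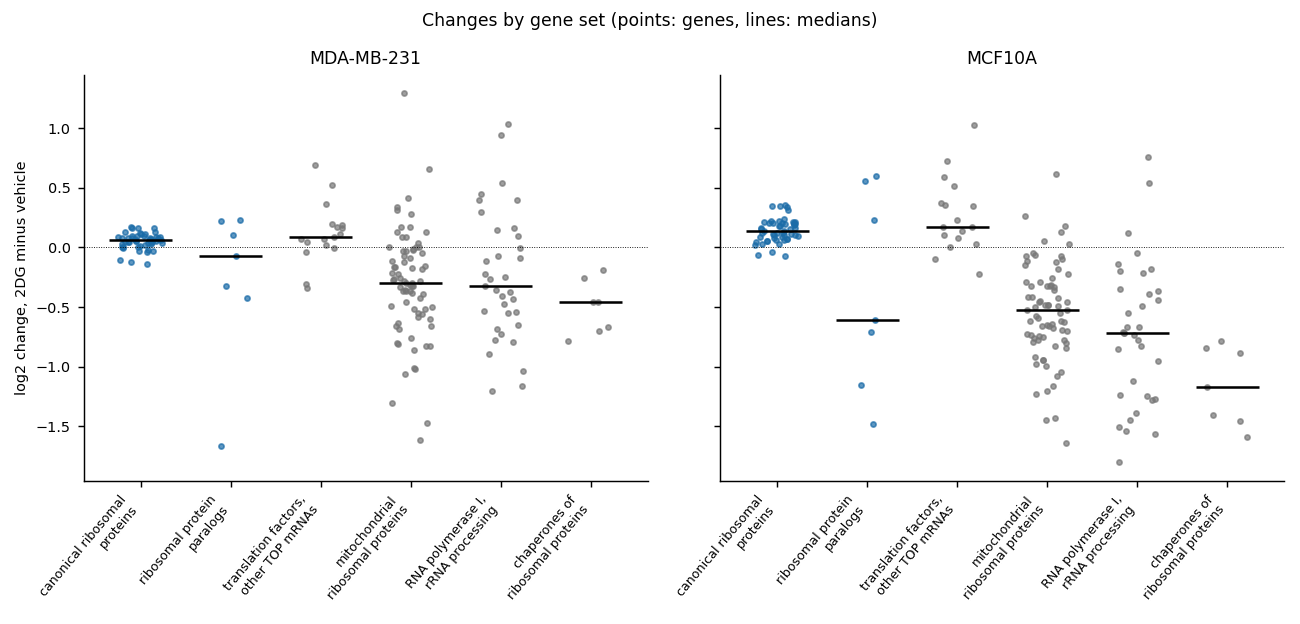
Log2 change on 2DG of each gene (points) and the median of each set (lines), in MDA-MB-231 (left) and MCF10A (right). Canonical cytosolic ribosomal proteins sit in a narrow band mostly above 0 (medians 0.059 and 0.135), paralogs are spread from -1.665 to 0.602, and mitochondrial ribosomal proteins, rRNA processing factors and chaperones lie mostly below 0.

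Regulators did not move in 1 direction. Of 20 genes that control TOP mRNAs and mTORC1, 10 rose and 6 fell in MDA-MB-231, and 10 rose and 9 fell in MCF10A, against 25.5% and 25.4% of all genes in MDA-MB-231 and 29.0% and 25.2% in MCF10A. DDIT4, which restrains mTORC1 under stress, rose by 1.92 in MDA-MB-231 and 0.42 in MCF10A, and MXD1, an antagonist of MYC, by 3.06 and 1.2. SESN3, which also restrains mTORC1, rose by 0.9 in MDA-MB-231 and 1.64 in MCF10A. DEPTOR, an inhibitor of mTOR, had a change of -0.18 in MDA-MB-231 that did not pass the test (adjusted p = 0.128), and rose by 1.64 in MCF10A. Of 14 measured p53 targets, 8 rose and 3 fell in MDA-MB-231 (median 0.225), and 12 rose and 1 fell in MCF10A (median 0.58), where RPS27L also rose. RRM2B, of DNA synthesis, changed by -1.24 in MDA-MB-231 and 0.6 in MCF10A, and XPC, of DNA repair, by -1.05 and 0.57. TP53INP1 rose by 0.99 in MDA-MB-231 and 3.33 in MCF10A, and ZMAT3 by 0.3 and 1.07. These arrays measured RNA and not ribosomes or translation, and in bulk RNA fewer cells of a kind and less RNA per cell cannot be told apart.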

How the data were processed

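Total RNA of 16 cultures was hybridised to 1-colour Affymetrix arrays with 54675 probe sets, and the log2 values deposited by the authors were made with RMA, per the submitters' processing notes; its version and settings are not given in the sources used here. Probe sets were named from the platform annotation: 41097 had 1 gene, 1801 had several and 11777 are unnamed here. Values were used as deposited, with the brightest of a gene's single-gene probe sets. limma 3.58.1 in R 4.3.3 fitted 4 group means (lmFit, eBayes, 12 residual degrees of freedom before moderation) to all 19775 genes, and Benjamini-Hochberg adjustment ran over all genes in each of 4 comparisons, with a threshold of 0.05. The fit was tested on simulated data with changes put into the MCF10A 2DG group. It recovered 34% of changes of 0.25, 90% of 0.5, 100% of 1 and 88% of -0.5, with 5 false calls. The changed genes were drawn from all genes, so these shares are not those of ribosomal protein genes. Array medians were 6.17 to 6.22, and the number of arrays limits the precision. Scan dates and slides are not given in the sources used here, so no batch was fitted. Genes and lists were chosen with earlier results of these data known. Individually described genes are the 7 paralogs and their partners, RPL11 and RPS6, the called canonical genes with the largest changes (4 each way for 2DG, 3 each way for the difference of response and the lines), and up to 2 called genes of each list for 2DG in each line. Replicate letters were not taken to pair the arrays: the correlation of same-letter deviations was -0.099 to 0.019 in MDA-MB-231 and 0.04 to 0.088 in MCF10A. Alternatives were other probe sets, normalisation, variance models, a filter on dim genes, an actin covariate, a replicate block and leaving out each array.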

Additional observations from a re-analysis of the deposited data

Results flagged for a closer look

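In 14 genes the response to 2DG differed between MDA-MB-231 and MCF10A by limma's test of the difference itself, among the 26 genes described singly. The differences, MDA-MB-231 minus MCF10A on the log2 scale, were positive for RPL22L1 (1.7), RPL7L1 (0.39) and RPL26L1 (0.18). They were negative for RPS27L (-0.68), RPL39L (-0.52), RPL10L (-0.33), RPL36 (-0.33), RPL31 (-0.27), RPL14 (-0.26), RPL12 (-0.18), RPL34 (-0.16), RPS6 (-0.15), RPL11 (-0.14) and RPL8 (-0.14). RPL8 lost this call without vehicle replicate C of MDA-MB-231 (-0.126) or 2DG replicate A (-0.118), RPL26L1 after cyclic loess (0.111), RPL14 without shared probe sets (-0.11), and RPS6 on the mean of its probe sets (-0.055) and without shared sets (0.222).

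In 4 cases a single array lay far from the other 3 of its group by Dixon's test, out of 104 groups of 4 arrays tested, where chance flags about 1 in 20. RPL36 stood at 13.26 in replicate C of MDA-MB-231 on 2DG, with the nearest array at 13.34. The others came from gaps of a few hundredths: RPL11 at 14.19 in replicate C of MDA-MB-231 on vehicle (nearest 14.16), RPL31 at 14.62 in replicate A of MCF10A on 2DG (nearest 14.63) and RPL7L1 at 12.91 in replicate D of MCF10A on vehicle (nearest 12.92).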

How the results depend on the processing

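The direction of the median change over the 59 genes was kept under every alternative run, while the counts of calls were not. Without _x_at and _s_at probe sets (36 genes left), 9 rose and 11 fell in MDA-MB-231 (median 0.034), 18 rose and 8 fell in MCF10A, 15 had a lower response in MDA-MB-231, and 17 were higher in MDA-MB-231 on vehicle. Over all 17100 genes left there, 3862 rose and 4075 fell in MDA-MB-231, and 4569 and 3970 in MCF10A. Of the 17100, 3804 had a lower response in MDA-MB-231, and 4545 were higher in MDA-MB-231 on vehicle. The mean of all probe sets gave 11 falls in MDA-MB-231 (median 0.032), and 5047 falls over all 19775 genes. A trended, robust variance gave 35 rises in MDA-MB-231, and 4950 over all genes. Cyclic loess gave medians of 0.085 in MDA-MB-231, 0.264 in MCF10A, -0.194 for the difference and 0.09 on vehicle, with 35 rises in MDA-MB-231 and 49 lower responses. The actin term left 7 rises in MDA-MB-231 (median 0.036). Over all 19775 genes, rises in MDA-MB-231 numbered 4654 after cyclic loess and 4077 with the actin term. Lower responses numbered 4947 after cyclic loess. The cause of the shifts of the 59 genes was not tested, except that fewer genes could be read without shared probe sets.

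Leaving out each array gave 13 to 20 rises, 5 to 6 falls and a median of 0.051 to 0.058 in MDA-MB-231, where 13 came without vehicle replicate A, and 38 to 42 rises, 4 to 5 falls and a median of 0.126 to 0.139 in MCF10A. The difference had 3 higher and 20 to 24 lower genes (median -0.095 to -0.085), and the lines on vehicle 31 to 32 higher and 7 to 8 lower (median 0.111 to 0.122). With the replicate block, 18 rose and 6 fell in MDA-MB-231, 40 rose and 4 fell in MCF10A, where RPL10A was the fall no longer called (adjusted p = 0.0506), 3 and 21 had a higher and a lower response, and 31 and 8 were higher and lower on vehicle. Over all 19775 genes with the block, 4981 rose and 4960 fell in MDA-MB-231, and 5690 and 4963 in MCF10A. The response was higher for 4355 and lower for 4627, and on vehicle 5734 were higher and 5282 lower. Each MCF10A array correlated best with its own letter, as a hint from the data and not from the design.

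Of 2464 values of single genes under alternatives, 2351 counted as unchanged, 51 lost the call and 47 gained it. The other 15 changed sign with a call in the main fit, the alternative or both. A change of sign with no call in either fit counted as unchanged. After cyclic loess in MCF10A, RPL10A had 0.068 and RPL35 had 0.077. Without shared probe sets in MCF10A, RPL7 had -0.23, RPLP2 -0.262, RPS15A -0.308 and RPS6 -0.035, and the difference of response was 0.538 for RPS15A and 0.222 for RPS6. In MDA-MB-231, RPL22 had -0.04 on the mean of its sets and -0.35 without shared sets, RPL31 had -0.192 and -0.165, and RPLP2 had -0.295 without shared sets. On vehicle, with probe sets shared with small RNA genes, an alternative chosen after seeing the data, RPL27A had 0.035 and RPLP2 had 0.112. Brightness near the top of the scale limits how well changes of canonical genes can be sized.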
